A study of Homo sapiens with 2 samples.

Results

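The nuclear genes of respiratory complexes II to V were examined in a human pancreatic cancer cell line, in 1 untreated RNA-seq library and 1 library from cells treated with dihydroartemisinin (DHA). Members were chosen by gene name and by the protein-coding biotype, with no use of measured values. They comprise the succinate dehydrogenase genes and their assembly factors (SDHA to SDHD, SDHAF), the cytochrome bc1 genes and their assembly factors (UQCR, UQCC, CYC1), the somatic cytochrome c gene CYCS, the genes named COX with a number, and the ATP synthase genes (ATP5F1, ATP5P, ATP5M, ATP5IF1). The names gave 68 genes of 58735 in the table, spread over 21 chromosomes. By role they were 48 structural subunits, 16 assembly factors, CYCS, the supercomplex factor gene COX7A2L, the inhibitor gene ATP5IF1 and 1 readthrough gene, ATP5MF-PTCD1.

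The cells were a highly metastatic derivative of SUIT-2, a human pancreatic adenocarcinoma line. The untreated library carries the treatment label NC, and the sources used here state neither a vehicle nor the dose or duration of DHA. DHA is the active metabolite of the artemisinin antimalarials. Reads counted in genes numbered 15452609 for untreated cells and 14521101 after DHA. With 1 library per condition there is no replicate check and no test, and every comparison below is between these 2 libraries. All 6 epithelial and ductal markers examined were detected. Their summed level was 758 untreated and 289.9 with DHA, in reads per kilobase per 1000000 reads (RPKM). Of the 6, 5 were at least 2-fold lower, against 10.3% of genes past a minimum of 50 reads. These 5 ranged from KRT18, 2.34-fold lower, to CDH1, 37.6-fold lower with 933 and 23 reads. Of the retina markers, named here because the extraction protocol speaks of retina, SAG, GNAT1 and RCVRN were at 0 reads and PDE6A had 6 and 5. The leukocyte markers PTPRC, CD68 and CD3E were at 0 in both libraries, the 4 fibroblast markers summed to 1.003 and 0.0997 RPKM with DCN and COL1A2 at 0, and the 3 endothelial markers to 2.35 and 0.497 with CDH5 at 0. The part of the epithelial difference in the ratios below was not tested.

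As background, complex II passes electrons from succinate to ubiquinone, complex III from ubiquinol to cytochrome c, and complex IV from cytochrome c to oxygen, while complex V uses the resulting proton gradient to make ATP. Complex II is encoded entirely in the nucleus, whereas complexes III, IV and V combine nuclear subunits with a few made in the mitochondrion. Assembly factors insert heme, copper, flavin and iron-sulfur clusters or stabilise intermediates, and are not part of the finished enzyme.

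Most of the measured members had fewer scaled reads in the DHA library, and complex V stood lowest among the complexes by median and by summed reads. Complex IV lay nearest to all genes by the median of its subunits, but not by summed reads. Of the 68 members, 59 reached a minimum of 50 reads in either library and 9 did not. Among the 59 the median log2 ratio, DHA over untreated, was -0.35, against 0.04 over the 12064 genes past the same minimum, and 49 of 59 ratios were below 0, against 47.8% of all genes. The 95% counting interval of the ratio lay wholly below 0 for 41 members (background 35.5% of genes) and wholly above 0 for 6 (background 39.8%). With a threshold of 2-fold and an interval that excludes no change, 4 members were lower (background 10.3%) and 0 were higher (background 6.72%), so the shift was made of many ratios of less than 2-fold. All members together took 0.843% of the counted reads without and 0.671% with DHA. In RNA from a whole culture, fewer cells of a kind and less RNA per cell cannot be told apart.

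**Figure D1:**
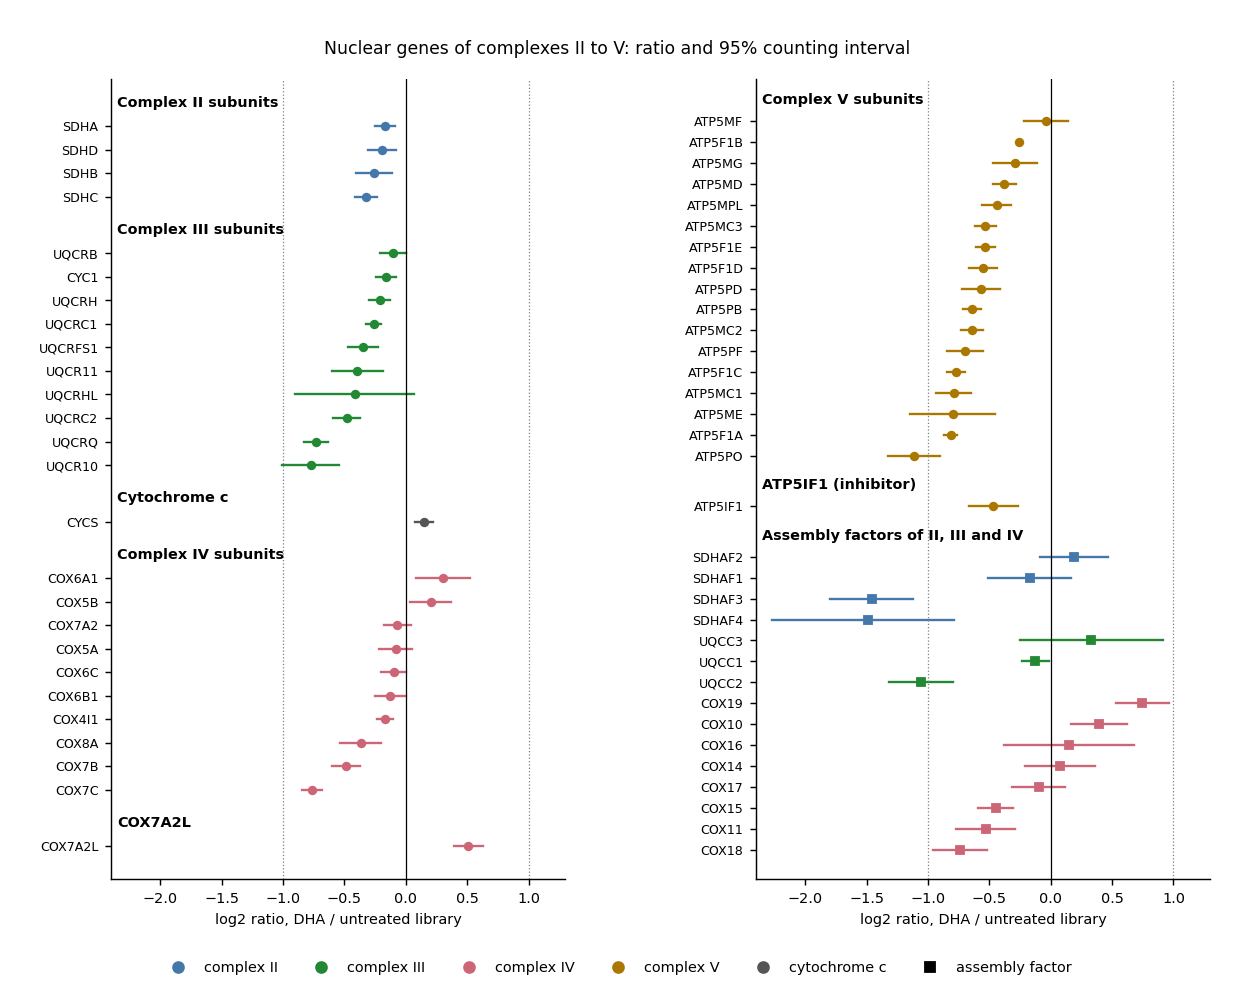
Log2 ratio, DHA over untreated, for the 59 members past the minimum of 50 reads (x axis), with the 95% counting interval as a bar. Circles are subunits, cytochrome c and accessory proteins, squares are assembly factors, and dotted lines mark 2-fold. All 17 complex V subunits lie below 0, the complex IV subunits lie on both sides, and SDHAF4, SDHAF3, ATP5PO and UQCC2 lie beyond 2-fold lower.

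The 4 members at least 2-fold lower were 3 assembly factor genes and 1 subunit gene of the ATP synthase stalk. SDHAF4, whose product helps assemble the flavoprotein SDHA with SDHB (ENSG00000154079, chromosome 6, 70566917 to 70589569, plus strand), had 66 untreated and 22 DHA reads, 2.80-fold lower (1.73 to 4.83). SDHAF3, which acts in the maturation of the iron-sulfur subunit SDHB (ENSG00000196636, chromosome 7, 97116590 to 97181763, plus strand), had 287 and 99 reads, 2.74-fold lower (2.18 to 3.49). ATP5PO, the OSCP subunit that ties the peripheral stalk to the catalytic head (ENSG00000241837, chromosome 21, 33903453 to 33915980, minus strand), had 603 and 264 reads, 2.16-fold lower (1.87 to 2.51). UQCC2, an assembly factor gene of complex III (ENSG00000137288, chromosome 6, 33694293 to 33711727, minus strand), had 384 and 175 reads, 2.07-fold lower (1.73 to 2.50). Coordinates are on GRCh38. All 4 intervals are wide enough that their order cannot be read, and those of ATP5PO, SDHAF4 and UQCC2 reach below 2-fold. Exons of other genes cover 25.4% of the exon length of ATP5PO and 24.1% of that of UQCC2, and the sources used here do not state how reads in such stretches were counted. With a minimum of 500 reads ATP5PO was the only member left at least 2-fold lower (background 5.79%), since the other 3 have fewer reads.

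The promoters of these 4 genes hold the core letters recognised by nuclear respiratory factor 1 (NRF1), a transcription factor known for its sites in promoters of respiratory chain genes. The core was found in 16 of 51 members with a promoter window (31.4%), against 8.58% of the windows of protein-coding genes. That background includes genes under the read minimum. Among genes of the whole table past it, 1140 with a window held the core and 8067 did not. The stretches of the 4 genes and of ATP5F1C and COX18 are shown to let the core be seen, and were picked for low ratios and for holding it. Low ratios also occurred without it, as in ATP5F1A (-0.81), ATP5MC1 (-0.79), COX7C (-0.76) and UQCRQ (-0.73), and ratios nearer 0 with it, as in COX17 (-0.10), UQCC1 (-0.13) and SDHA (-0.17). Among members with at least 500 reads the median was lower without the core (-0.46) than with it (-0.26). Each is given 5′ to 3′ on the strand of the gene, with the core in capitals, from RefSeq windows on GRCh38.p14.
SDHAF4: ctactgctttGCGCCTGCGCggaggctcgg
SDHAF3: ccacgacgagGCGCAGGCGCgactccacga
ATP5PO: acgccaacgcGCGCGTGCGCccttgcgcgt
UQCC2: gaggcttagtGCGCAAGCGCcattcgtcgg
ATP5F1C: gggagcttcgGCGCATGCGCgctgaggcct
COX18: gcaggcaggcGCGCATGCGCtttatgcccg
These lie at chr6:70566899-70566928 (plus strand), chr7:97117480-97117509 (plus), chr21:33915809-33915838 (minus), chr6:33711729-33711758 (minus), chr10:7788145-7788174 (plus) and chr4:73069744-73069773 (minus). The core ends 11 bases before the RefSeq start of SDHAF4, 198 before that of SDHAF3, 14 before ATP5PO, 38 before UQCC2, 12 before ATP5F1C and 37 before COX18. All of the stretches except that of UQCC2 overlap an exon in GENCODE release 29, which places starts at other bases. SDHAF3 and COX18 each hold the core at 2 places in the window, of which 1 is printed.

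Complex V, the ATP synthase, had the lowest median of the 4 complexes, -0.56 over its 17 measured subunit genes. All 17 ratios were below 0, from -1.11 to -0.04, and 16 of the 17 intervals lay wholly below 0. The exception was ATP5MF, a small membrane subunit gene, with 530 and 489 reads and a log2 ratio of -0.04 (-0.22 to 0.14). After removal of a trend of the ratio on length and GC content, the median of complex V was -0.57 and ATP5MF was at 0.05. The readthrough gene ATP5MF-PTCD1, which shares 93.8% of its exon length with other genes, had 1 and 2 reads.

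The catalytic head of complex V, F1, is made of alpha and beta subunits around the central gamma, delta and epsilon subunits. ATP5F1B, which encodes the catalytic beta subunit, had 43392 and 34430 reads and was the member with the highest level, 1214 RPKM untreated and 1017 with DHA. ATP5F1A, which encodes the alpha subunit, had 8356 and 4497 reads, or 49.8 and 28.3 RPKM. Alpha and beta stand in equal number in the enzyme, but their ratios differed by more than counting error, with log2 values of -0.81 (-0.87 to -0.76) for ATP5F1A and -0.25 (-0.28 to -0.23) for ATP5F1B. The interval of ATP5F1B lay above those of the other 4 F1 genes. ATP5F1C, the gamma subunit gene, had 4168 and 2309 reads and a log2 ratio of -0.77 (-0.85 to -0.70). The delta and epsilon genes ATP5F1D and ATP5F1E had -0.55 and -0.53, and other genes cover 23.2% of ATP5F1E exon bases.

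The weight of ATP5F1B shaped the summed reads of the complex. The 18 subunit genes of complex V together had 78901 and 56010 reads, a log2 ratio of -0.42 (-0.43 to -0.40), and ATP5F1B held 55.0% of those from untreated cells. Without it the sum had 35509 and 21580 reads and a log2 ratio of -0.64 (-0.66 to -0.62). The sums of complexes II, III and IV had log2 ratios of -0.23 (-0.28 to -0.18), -0.32 (-0.35 to -0.29) and -0.27 (-0.30 to -0.23). The order of complexes II, III and IV is thus not the same by sum as by median, while complex V was lowest by both.

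The ring of c subunits, which turns as protons pass, is encoded by 3 genes whose mature proteins are known to be the same and whose import signals differ. ATP5MC1 had 1166 and 638 reads, a log2 ratio of -0.79 (-0.93 to -0.65). ATP5MC2 had 2815 and 1708 reads, at -0.64 (-0.73 to -0.55). ATP5MC3 had 2803 and 1836 reads, at -0.53 (-0.62 to -0.45). The intervals of ATP5MC1 and ATP5MC3 do not overlap, and that of ATP5MC2 overlaps both. Of the reads of the 3 genes, ATP5MC1 took 17.2% untreated (exact binomial interval 16.3 to 18.1) and 15.3% with DHA (14.2 to 16.4), ATP5MC3 took 41.3% (40.1 to 42.5) and 43.9% (42.4 to 45.4), and ATP5MC2 41.5% and 40.8%. The shares of the 3 genes thus moved by a few percentage points at most.

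The peripheral stalk keeps the head from turning with the ring. Its 4 genes had a median of -0.67, the lowest of the complex V modules, a grouping made after the values were known. Besides ATP5PO they were ATP5PF (1075 and 628 reads, -0.70), ATP5PB (3993 and 2428, -0.64) and ATP5PD (867 and 555, -0.56). ATP5PF and GABPA, the gene of an ETS factor known to bind promoters of respiratory genes, overlap at their starts on opposite strands, and 23.1% of the exon length of ATP5PF is shared. GABPA had 475 and 533 reads and a log2 ratio of 0.24 (0.06 to 0.43), while that of ATP5PF was -0.70 (-0.84 to -0.55).

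The 5 measured small membrane subunits had a median of -0.38. ATP5MD, the gene of the subunit known as DAPIT, and ATP5MPL had log2 ratios of -0.38 and -0.44, and ATP5MG had -0.29. ATP5ME had 200 and 109 reads and -0.79 (-1.15 to -0.45), but 61.6% of its exon length is covered by other genes on the opposite strand. ATP5MGL, a close relative of ATP5MG, had 1 read and 0. ATP5IF1, which encodes the inhibitor that blocks ATP hydrolysis by the synthase, had 524 and 359 reads and a log2 ratio of -0.47 (-0.66 to -0.27), within the range of the subunits it acts on.

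**Figure D2:**
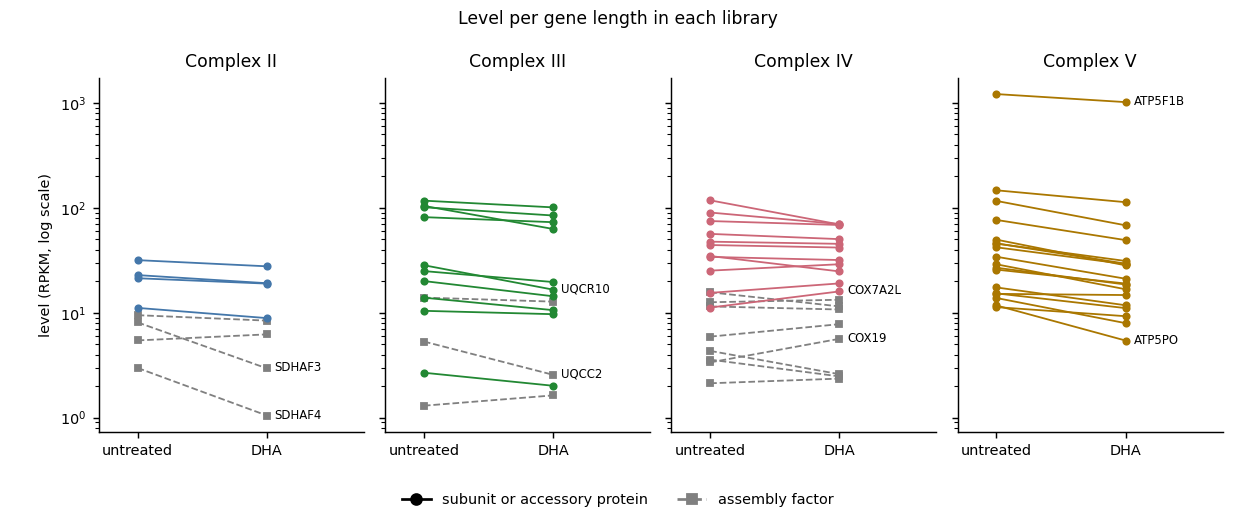
Level of each measured member except CYCS in the untreated and DHA libraries, in reads per kilobase of gene length per 1000000 scaled reads (RPKM, log scale), by complex. Solid lines are subunits and accessory proteins, dashed grey lines assembly factors. ATP5F1B lies at 1214 and 1017 RPKM, far above the rest. The assembly factors of complexes II, III and IV lie at 15.7 RPKM or less, and the complex V panel has none.

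Complex III subunit genes were second, with a median of -0.37 over 10 genes. All 10 ratios were below 0 and 9 intervals lay wholly below 0. UQCR10, which encodes a small subunit, had the lowest ratio, with 426 and 236 reads and -0.77 (-1.01 to -0.54). UQCRQ, another small subunit gene, followed with 2364 and 1349 reads and -0.73 (-0.83 to -0.63). The highest ratio was that of UQCRB, with 1560 and 1372 reads and -0.11 (-0.21 to -0.00090). The redox subunit genes lay between them. CYC1, which encodes the heme protein cytochrome c1, had 2479 and 2100 reads and -0.16, and UQCRFS1, the Rieske iron-sulfur protein gene, had 1335 and 994 reads and -0.35. The core protein genes UQCRC1 and UQCRC2 had -0.26 (-0.32 to -0.20) and -0.48 (-0.59 to -0.37), so that their intervals do not overlap. With a minimum of 500 reads, which leaves out UQCR10, UQCR11 and UQCRHL, the median of complex III was -0.26.

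UQCRH, the hinge protein gene, had 2537 and 2073 reads and -0.21 (-0.30 to -0.13). Its intronless relative UQCRHL had 90 and 64 reads and took 3.43% (2.76 to 4.19) of the reads of the pair untreated and 2.99% (2.31 to 3.81) with DHA. Reads of near-identical copies can be split or moved by the counting, so the value of UQCRHL is uncertain. The 149 pseudogenes named after members had 441 and 361 reads in all, against 130275 and 97451 reads of the members.

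Complex II subunit genes lay in a narrow band. SDHA, the flavoprotein gene, had 2752 and 2316 reads and a log2 ratio of -0.17, and SDHB, the iron-sulfur protein gene, 866 and 686 reads and -0.26. The membrane anchor genes SDHC and SDHD had 2425 and 1835 reads (-0.32) and 1386 and 1146 reads (-0.20). All 4 intervals lay below 0, and the median was -0.23. The median counting interval reached 0.10 to each side for these subunits and 0.34 for the complex II assembly factors. The band of the subunits was narrower than that of the 4 complex II assembly factor genes. There SDHAF4 and SDHAF3 had -1.48 and -1.45, whereas SDHAF1, which acts with SDHAF3 on SDHB, had 163 and 137 reads and -0.17 (-0.51 to 0.16). SDHAF2, whose product attaches the flavin to SDHA, had 209 and 226 reads and 0.19 (-0.09 to 0.47). Exons of other genes on the same strand cover 30.5% of the exon length of SDHAF2. The intervals of SDHAF3 and SDHAF4 lie wholly below those of all 4 subunits.

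Complex IV, cytochrome c oxidase, was nearest to the background by median, with a value of -0.11 over 10 measured subunit genes. Of these, 4 had intervals wholly below 0, 2 wholly above 0 and 4 spanning it. COX7C had the lowest ratio, with 3618 and 2016 reads and -0.76 (-0.84 to -0.69), followed by COX7B (1617 and 1092, -0.49) and COX8A (704 and 517, -0.37). Exons of other genes on the same strand cover 34.5% of the exon length of COX8A. COX4I1, which encodes the largest nuclear subunit, had 4165 and 3514 reads and -0.17 (-0.23 to -0.10). COX6A1 and COX5B lay above 0, with 320 and 373 reads (0.30, 0.08 to 0.52) and 559 and 609 reads (0.20, 0.03 to 0.37). COX5A, the gene of a subunit on the matrix side, had 960 and 860 reads and -0.08 (-0.21 to 0.05). COX6B1 (-0.12), COX6C (-0.10) and COX7A2 (-0.07) had intervals that include 0. With the trend on gene length and GC content removed, the median of complex IV was -0.01, and COX5A, COX6B1 and COX7A2 were at 0.08, 0.10 and 0.04. The intervals of COX7C and COX6A1 lay on opposite sides of 0, although both encode subunits of 1 enzyme.

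The tissue-restricted forms of complex IV were near or at 0 in both libraries. COX4I2, known as the hypoxia-responsive form of COX4, had 0 reads in either library, which allows a share of up to 0.0720% of the COX4 reads untreated and 0.0854% with DHA, counting error only. The muscle form COX6A2 and the testis-associated COX7B2 and COX8C were also at 0, and COX6B2 had 2 reads and 0. The muscle form COX7A1 had 3 and 8 reads, a log2 ratio of 1.36 with a counting interval from -0.56 to 4.04. COX7A2L, which encodes the factor that joins complexes III and IV in supercomplexes, had 967 and 1305 reads, a log2 ratio of 0.51 (0.39 to 0.63). Its share of the reads of the COX7A family was 40.7% (38.7 to 42.7) and 50.5% (48.6 to 52.5), and that of COX7A2 was 59.2% (57.2 to 61.2) and 49.2% (47.2 to 51.1). The change of share came with more reads of COX7A2L and nearly the same number of COX7A2.

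CYCS, the gene of the mobile carrier between complexes III and IV, also lay above 0. It had 2819 and 2958 reads and a log2 ratio of 0.15 (0.07 to 0.22). Its interval lies above those of all 10 complex III subunits.

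The assembly factors of complex IV had a wider range than its subunits, and a median counting interval of 0.23 against 0.12 to each side. Their median ratio was -0.01. The median was 0.13 with the length and GC trend removed, and was also above 0 with total-read scaling and with a minimum of 10 reads or 1 read. COX19, a copper-linked factor of the intermembrane space, had 287 and 456 reads and a log2 ratio of 0.75 (0.53 to 0.96), the highest ratio of any member past the minimum. Exons of other genes on the same strand cover 21.4% of the exon length of COX19. COX10, which makes heme O as the first step towards heme A, had 289 and 360 reads and 0.40 (0.17 to 0.62). COX15, which carries out the next step of heme A synthesis, had 1008 and 700 reads and -0.45 (-0.59 to -0.31), so that the 2 enzymes of this path stood on opposite sides of 0. For COX15 the same-strand exons of other genes cover 25.6%. The copper chaperone genes COX11 (357 and 234 reads) and COX17 (384 and 340) had -0.53 (-0.77 to -0.29) and -0.10 (-0.31 to 0.12), with intervals that overlap. COX18, whose product inserts a domain of the mitochondrially made subunit COX2 into the inner membrane, had 465 and 264 reads and -0.74 (-0.96 to -0.52). COX14 and COX16, which act in early steps with subunits made in the mitochondrion, had 208 and 208 and 61 and 64 reads, with intervals that include 0. For COX16 the same-strand exons of other genes cover 36.0%. COX20 had 12 and 15 reads, under the minimum, and its pseudogene COX20P1 27 and 27. With a minimum of 500 reads only COX15 is left of this group.

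In complex III, the assembly factors UQCC1 and UQCC3, which act with UQCC2 on cytochrome b, were unlike it. UQCC1 had 1456 and 1262 reads and a log2 ratio of -0.13 (-0.24 to -0.02), and UQCC3 had 48 and 57 reads and 0.32 (-0.25 to 0.91). The interval of UQCC2 lies wholly below both.

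Over all complexes, structural subunits and assembly factors differed in the spread of their ratios and in their level. The 41 measured subunits had a median of -0.38 and a range from -1.11 to 0.30. Of their intervals 33 lay wholly below 0 (80.5%, background 35.5%) and 2 above (4.88%, background 39.8%). The 15 measured assembly factors had a median of -0.13 and a wider range from -1.48 to 0.75. Of their intervals 7 lay below 0 (46.7%, nearer the background of 35.5%), 2 above (13.3%) and 6 spanned it. The assembly factors all belong to complexes II, III and IV, whereas the subunits include complex V. The 24 measured subunits outside complex V had a median of -0.23 and a range from -0.77 to 0.30. Among these subunits 17 intervals lay below 0 (70.8%) and 2 above (8.33%). The part of complex V in the difference was not tested. The median counting interval reached 0.26 to each side for assembly factors and 0.11 for subunits. The part of counting error in the wider range was not tested. With the trend on length and GC content removed the medians of all measured subunits and of assembly factors were -0.32 and -0.003. At 500 reads or more they were -0.36 and -0.29, the latter over COX15 and UQCC1 alone. Subunit levels ran from 2.68 to 1214 RPKM without DHA, with a median of 34.1, and those of assembly factors reached 15.7 with a median of 5.45. With DHA the medians were 27.7 and 5.64. No test of these differences was made, since genes of 1 library are not replicates.

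**Figure D3:**
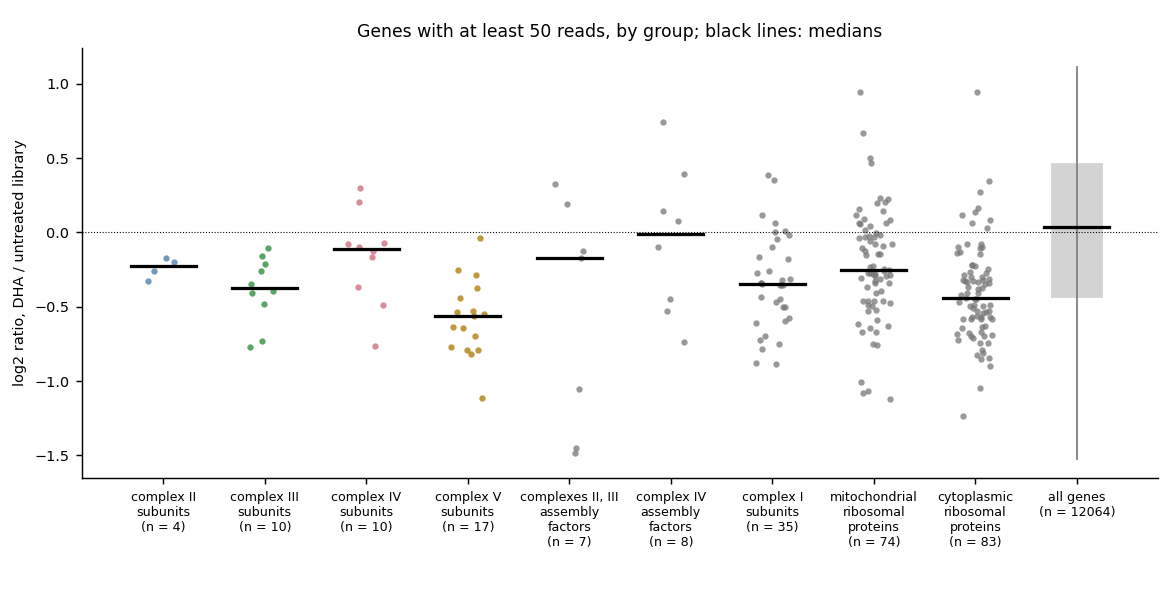
Log2 ratio, DHA over untreated, for genes past the minimum of 50 reads, by group. Points are genes, black lines medians, and for all 12064 genes the box and line give the middle 50% and 90%. The median of complex V subunits is -0.56, that of complex IV subunits -0.11 and that of all genes 0.04.

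The level of a member depended on which length was used. With the mean length of coding transcripts in place of all annotated exons, ATP5F1A was at 184 RPKM in the untreated library and ATP5F1B at 1533, so that ATP5F1B led the next member by 5.18-fold rather than 8.26-fold. Across the 59 members the ratio had a Spearman correlation of -0.06 with gene length, 0.16 with GC content and -0.06 with mean level, given as a description over genes of the same 2 libraries.

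Complex I, which passes electrons from NADH to ubiquinone, had nuclear genes close to the members in median. The 35 measured genes named as its subunits, which include NDUFA4, had a median of -0.34. Of their intervals 25 were below 0 (71.4%, background 35.5%) and 2 above (background 39.8%). Past 2-fold there were 0 genes (background 10.3% lower and 6.72% higher). Mitochondrial ribosomal protein genes had -0.26 over 74 genes, with 4 genes at least 2-fold lower (5.41%, background 10.3%). Cytoplasmic ribosomal protein genes, which have no part in respiration, had -0.44 over 83 genes. Among them 72 intervals lay below 0 (86.7%, background 35.5%) and 2 genes were at least 2-fold lower (2.41%, background 10.3%). A median below 0 was therefore not limited to the respiratory genes in these libraries.

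The subunits made in the mitochondrion had log2 ratios of -0.69, -0.59 and -0.96 for MT-CO1, MT-CO2 and MT-CO3 of complex IV, -0.05 for MT-CYB of complex III (0.14 with the trend removed), and -1.01 (-0.76 with the trend removed) for MT-ATP6 and 0.87 for MT-ATP8 of complex V. MT-ATP8 had 96 and 167 reads (interval 0.51 to 1.26) and shares 22.2% of its length with MT-ATP6, which had 97453 and 45843 (-1.03 to -0.99). Untreated levels were 30.1 RPKM for MT-ATP8 and 9296 for MT-ATP6. The sources used here do not state how reads in the shared stretch were counted, so the ratio of MT-ATP8 is uncertain. The 3 of complex IV lay below the median of their nuclear partners (-0.11), MT-CYB above that of complex III (-0.37), and the pair of complex V on both sides of -0.56.

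Other genes of assembly and control, listed by their known roles outside the name rule, were described by the same counts. The list of further assembly factors and associated proteins held 32 rows, 26 past the read minimum. Its median was -0.21, below that of all genes. Of the intervals 12 lay below 0 (46.2%, background 35.5%) and 5 above (19.2%, background 39.8%). Past 2-fold there were 0 (background 10.3% lower and 6.72% higher). The lowest was COA5, a complex IV factor gene, with 291 and 156 reads and -0.82 (-1.11 to -0.54), and the highest COA7, another factor gene of complex IV, with 826 and 1041 reads and 0.41 (0.28 to 0.55). NDUFA4, now counted as a subunit of complex IV, had 3020 and 2063 reads and -0.47 (-0.55 to -0.39). By name it was also counted in the complex I set above, and it is not in the complex IV subunit median. Its hypoxia-linked relative NDUFA4L2 had 0 and 12 reads. The complex V factor genes ATPAF1 and ATPAF2, which chaperone the beta and alpha subunits, had -0.42 (-0.55 to -0.30) and 0.34 (0.03 to 0.64).

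Among 10 measured regulators of respiratory genes the median was -0.07 and 0 passed 2-fold (background 10.3% lower and 6.72% higher). With so few genes a count of 0 says little. PPARGC1B, a coactivator gene, had the lowest ratio (242 and 149 reads, -0.62, interval -0.93 to -0.32), and GABPB1, which encodes the partner of GABPA, the highest (408 and 509 reads, 0.40, interval 0.21 to 0.59). NRF1 itself had 382 and 337 reads and -0.10 (-0.32 to 0.11). TFAM, the packaging and transcription factor gene of mitochondrial DNA, had 1615 and 1303 reads and -0.23 (-0.34 to -0.12). PPARGC1A, the best known coactivator of this programme, had 9 and 14 reads, under the minimum.

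Promoter windows from 250 bases before to 50 after the start were found for 51 of the 68 members in the RefSeq table. The NRF1 core, on either strand, was present in 16 of them (31.4%), against 6.28% of all 27305 windows and 8.58% of those of protein-coding genes. The ETS core CCGGAAG was present in 19 (37.3%, against 10.7% of all windows and 14.2% of protein-coding ones) and the YY1 core AAGATGGC in 7 (13.7%, against 3.03% and 3.91%). The windows were searched on both strands and motifs may overlap. These backgrounds include genes under the read minimum, which hold the letters less often than measured genes would show. Among genes past the minimum with a window, the NRF1 core was present in 1140 and absent in 8067. For the ETS core these numbers were 1878 and 7329, and for the YY1 core 529 and 8678.

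The 15 measured members with the NRF1 letters, which include the 6 shown above, all had ratios below 0, with a median of -0.74. The 31 without them had a median of -0.26, and 22 of them were below 0. The members with the letters were SDHA, SDHD, SDHAF3, SDHAF4, UQCRC1, UQCRFS1, UQCR10, UQCR11, UQCC1, UQCC2, COX17, COX18, ATP5F1C, ATP5ME and ATP5PO, and among subunits of complex IV they were found in the unmeasured COX8C alone. The split did not hold for the abundant members. With a minimum of 500 reads the medians were -0.26 with and -0.46 without the letters, the opposite order. The median with the letters then rests on SDHA, SDHD, UQCRC1, UQCRFS1, UQCC1, ATP5F1C and ATP5PO alone. It was also absent over the whole table, where 1140 genes with the letters had a median of 0.10, with 43.2% below 0, and 8067 without them 0.04, with 47.6% below 0. For the ETS letters the medians were -0.26 in 19 members with and -0.48 in 27 without. For the YY1 letters they were -0.64 in 7 members with and -0.35 in 39 without. A match of letters is not a binding site, and binding was not measured.

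**Figure D4:**
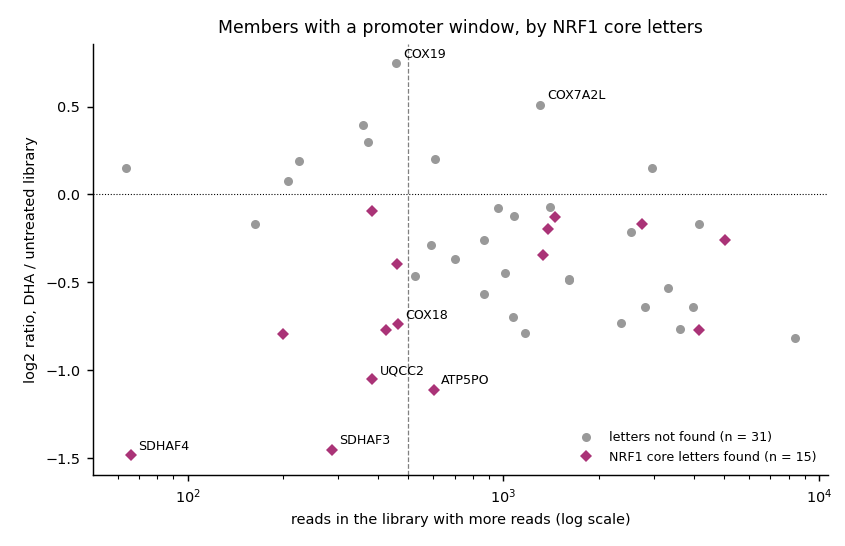
Log2 ratio, DHA over untreated, (y axis) against the reads of the member in the library with more reads (x axis, log scale), for the 46 measured members with a promoter window. Diamonds are the 15 members with the NRF1 core letters and circles the 31 without, and the dashed line marks 500 reads. All 15 diamonds lie below 0, and at or right of the dashed line their median is -0.26 against -0.46 for the circles.

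Genes that begin beside a member had ratios of either sign. For 14 members a protein-coding gene begins within 1000 bases on the opposite strand and points away, and for 12 of these both genes passed the read minimum. The partners had a median of -0.15 with 8 of 12 below 0, and the members -0.45 with 11 of 12 below 0. Of all genes, 47.8% were below 0. The sign was the same in 7 of 12 pairs, and no share for other pairs of genes was computed. With so few pairs this count says little. ATP5F1A and HAUS1, which encodes a part of a spindle complex and starts 2 bases away, had -0.81 and -1.01 (-1.30 to -0.73). ATP5MD and PDCD11, which encodes a ribosome biogenesis protein and starts 134 bases away, had -0.38 (-0.47 to -0.28) and 0.77 (0.68 to 0.86). SDHA and CCDC127, 26 bases apart, had -0.17 (-0.25 to -0.09) and 0.44 (0.25 to 0.63). These last 2 pairs were those in which the intervals lay on opposite sides of 0.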

How the data were processed

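RNA-seq of 2 libraries was compared, 1 untreated and 1 treated with DHA, grouped by their treatment labels. The authors deposited 1 table of whole-number read counts per gene, not normalized, with gene coordinates and lengths. Per the labels' protocols, RNA was extracted with Trizol and libraries came from an Illumina kit. The same protocol names retina, and mm8, a mouse build, stands in the submitters' processing notes, but the gene identifiers are human, and all 58735 deposited lengths equal the exon union of GENCODE release 29 on GRCh38. The sources used here give no aligner, counting tool or strand setting.

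Counts were scaled with TMM (edgeR 4.0.16, R 4.3.3; factors 0.996 and 1.00). The log2 ratio used a pseudocount of 0.5 reads, with an exact 95% Clopper-Pearson counting interval, taken on the proportion of reads that came from DHA. Intervals cover counting error only. The interval reached a median of 0.62 to each side of the log2 ratio for genes with a sum near 100 reads and 0.19 near 1000. A gene was called at 50 reads in at least 1 library, 2-fold, with an interval excluding no change. Levels are reads per kilobase of deposited gene length per 1000000 TMM-scaled reads, chosen after seeing the data in place of TPM so that levels and ratios share 1 scaling. Motifs were searched in RefSeq windows, with 17 members unmatched. The calculation was tested on simulated data.

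Every member could be named. Those described in full were the highest and lowest of each complex and role, those called, and paralogs, and of other pathway genes those called and the extremes. Neighbouring genes, pseudogenes, complex V modules, NDUFA4, NDUFA4L2, ATPAF1, ATPAF2, PPARGC1A, TFAM, GABPA and the remaining genes were named after their values were seen. The value of 1 listed marker gene is not reported here. Members, lists and alternatives were chosen with earlier results of these data known. Alternatives covered scaling (total reads, DESeq2 1.42.0 size factors, upper quartile), read minimum, pseudocount, fold, a cubic trend on length and GC content, and shared exons.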

Additional observations from a re-analysis of the deposited data

How the results depend on the processing

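The set of 4 members at least 2-fold lower and 0 higher was the same with total-read, DESeq2 and upper-quartile scaling, a minimum of 1 or 10 reads, a pseudocount of 1 read, the length and GC trend removed, members with over 50% shared exons left out, and TMM without the mitochondrial genome. With a minimum of 500 reads the number lower was 1 of 41 members, where 5.79% of all genes were called lower. Fewer genes were tested at that minimum. With a 1.5-fold threshold 15 were lower and 1, COX19, higher, where 19.2% and 18.9% of all genes were called. With a minimum of 500 reads the median was -0.26 for complex III subunits, -0.45 for complex IV assembly factors, and -0.26 and -0.46 for members with and without the NRF1 letters. The summed-read ratios of complexes III, IV and V were -0.36, -0.31 and -0.45 with DESeq2 size factors, and those of complexes II to V were -0.30, -0.38, -0.33 and -0.48 with upper-quartile scaling, which moved the median of all genes by -0.07. That of complex V was -0.64 without ATP5F1B. The other 179 of 194 counts, medians and sums stayed within 1.5 times (counts), the counting interval (sums) or the typical counting interval of a member (medians). Of 630 values of single members, 17 moved beyond their counting interval and 5 changed sign, all 5 with the trend removed (COX7A2, COX6B1, COX5A, ATP5MF and SDHAF1), and 0 of the called members changed sign. With the letters counted only before the start, 14 members with them had a median of -0.57 and 32 without -0.27. The trend removal was not run for summed reads. No complex II assembly factor has 500 reads. TMM without the mitochondrial genome, the sum without ATP5F1B and the search before the start were added after the data were seen. No paired analysis was possible because each condition has 1 library. At 50 to 100 reads only large ratios can be told from counting error, and variation between cultures was not measured.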
